A study of Mus musculus with 36 samples.

Results

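Mouse pancreatic fibroblasts that had shared a dish with tumour clone N were compared with the same fibroblasts grown alone. The comparison rests on 8 of the 36 RNA sequencing libraries of the series, 4 from the clone N co-culture and 4 from mono-culture, chosen by the condition each sample carries in its labels and by the matching column of counts. The question was which fibroblast genes differ after direct contact with this clone. The fibroblasts were of the C57BL/6 strain in every group. Clone N is a tumour sub-clone marked with GFP, a green fluorescent protein. It was kept in direct contact with the fibroblasts for 48 hours, after which the cells were parted by flow sorting on GFP and RNA was taken from the fibroblasts. Mono-culture fibroblasts met no tumour cell, and the labels do not state separately whether they passed through the sorter. Clone N is a single sub-clone and the labels name no genotype for it. They do not say whether the 4 libraries of a group came from separate cultures, so p-values measure a spread between libraries that may be technical. That spread was estimated from all 36 libraries in 9 groups together, not from the 8 compared libraries alone. Other groups were used in 2 further comparisons: clone E, and clones E, H, K, M, T and V together (4 libraries each), which were cultured with the same fibroblasts for the same time.

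Fibroblasts next to pancreatic tumour cells are known to leave a resting state. They can take up a contractile, matrix-depositing state that follows TGF-beta signalling, or a secretory state rich in cytokines such as IL-6, and cells can move between these states. Wnt, Hedgehog and BMP ligands and ligands of the EGF receptor pass between epithelium and stroma, and interferon target genes are kept on at a low level by interferon that cells make themselves.

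The 8 libraries held 12577931 to 20727926 counts. Mono-culture replicate 4 stood apart: mitochondrial genes took 2.16% of its counts, against 3.87% to 4.31% in the other 3 mono-culture libraries and 3.62% to 4.39% with clone N. Results that rest on it are given with and without it. All 12 defining markers of fibroblasts could be tested; 4 were higher with clone N, none was lower, and Col1a1, Col1a2 and Col3a1, the chains of collagen I and III, were not called. Some defining markers of leukocytes (Tyrobp, Cd3e), endothelium (Tie1, Cldn5) and acinar cells (Prss1, Amy2a5) had 0 counts in all 8 libraries, and the leukocyte gene Ptprc had at most 3. Few members of these lists could be tested: 5 of 14 macrophage and leukocyte genes (2 higher, 1 lower), 6 of 10 endothelial genes (2 higher, 1 lower) and 1 of 12 acinar and endocrine genes, Cela1, which was lower (adjusted p = 0.039) but not in 6 of the 8 fits that each left out 1 library.

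Epithelial markers went along with clone N. Their summed level was 49.0 to 54.0 CPM (counts scaled to library size and between libraries) in mono-culture and 507 to 798 CPM with clone N, with clone N replicate 2 the highest and replicate 1 the lowest. Of 24 listed, 14 could be tested and 10 were higher; the keratins Krt8, Krt18 and Krt19 and the adhesion protein Cdh1 were among them, while the epithelial adhesion gene Epcam had at most 6 counts in a clone N library and Cldn4, Esrp1, Tff1 and Prom1 had 0. The median log2 fold change was 2.57, and 3.47 with the genes at the detection floor of 3 counts set to their bound and Cldn3, which had no more than that in either group, left out. In sorted bulk RNA, fewer cells of a type and less RNA per cell cannot be told apart. The part of epithelial RNA in the differences was not tested.

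Of 14439 genes tested with edgeR, 5625 (39%) differed between clone N co-culture and mono-culture at an adjusted p under 0.05: 2848 (19.7%) were higher with clone N and 2777 (19.2%) were lower. These shares are the background against which each gene list is read. The split turned to 2366 higher and 3288 lower genes without scaling beyond library size, and to 2219 higher and 3411 lower by limma on log2(RPKM + 1), a value per gene length and library size. At least 2-fold changes were seen in 1051 higher and 687 lower genes. The 4 clone N libraries lay above the 4 mono-culture libraries in 2912 genes (20.2%) and below them in 2947 (20.4%). Without mono-culture replicate 4, 5019 genes were called, 2455 higher and 2564 lower.

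**Figure D1:**
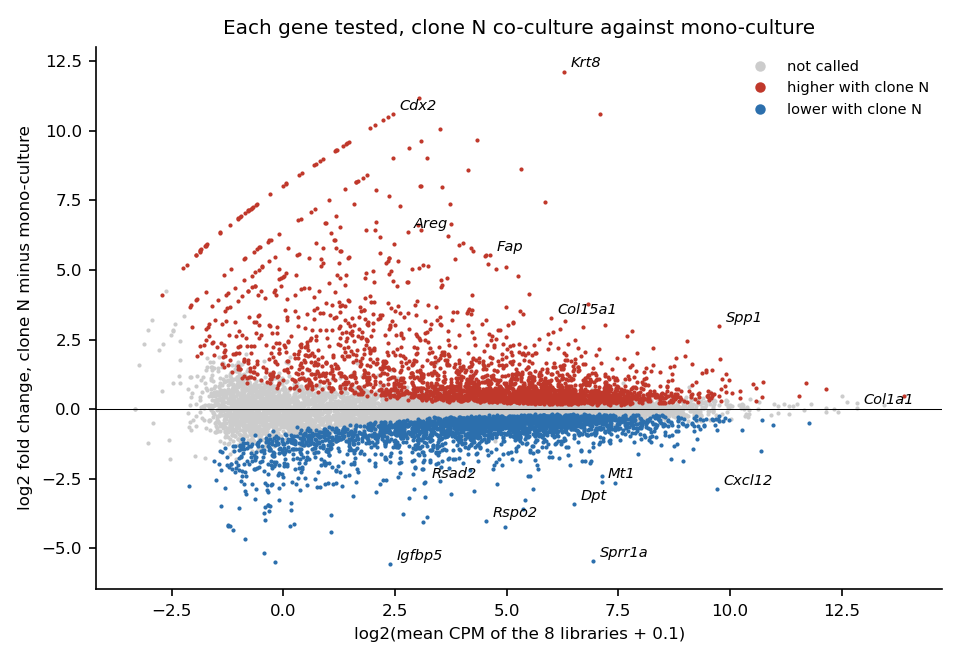
Each point is 1 of 14439 genes; the horizontal axis is the log2 mean CPM of the 8 libraries (0.1 added) and the vertical axis the log2 fold change of clone N over mono-culture. The 2848 red points were called higher, the 2777 blue points lower and grey points were not called; the slanted lines of red points at the upper left are genes with 0 or few counts in mono-culture, whose fitted fold is no bound.

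Gene lists fell on both sides. The lists with the highest medians were epithelial markers, the Wnt pathway and chemokines and cytokines, and those with the lowest were interferon response, MHC class I presentation and sterol and fatty acid synthesis. The median over all genes tested was 0.002.

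**Figure D2:**
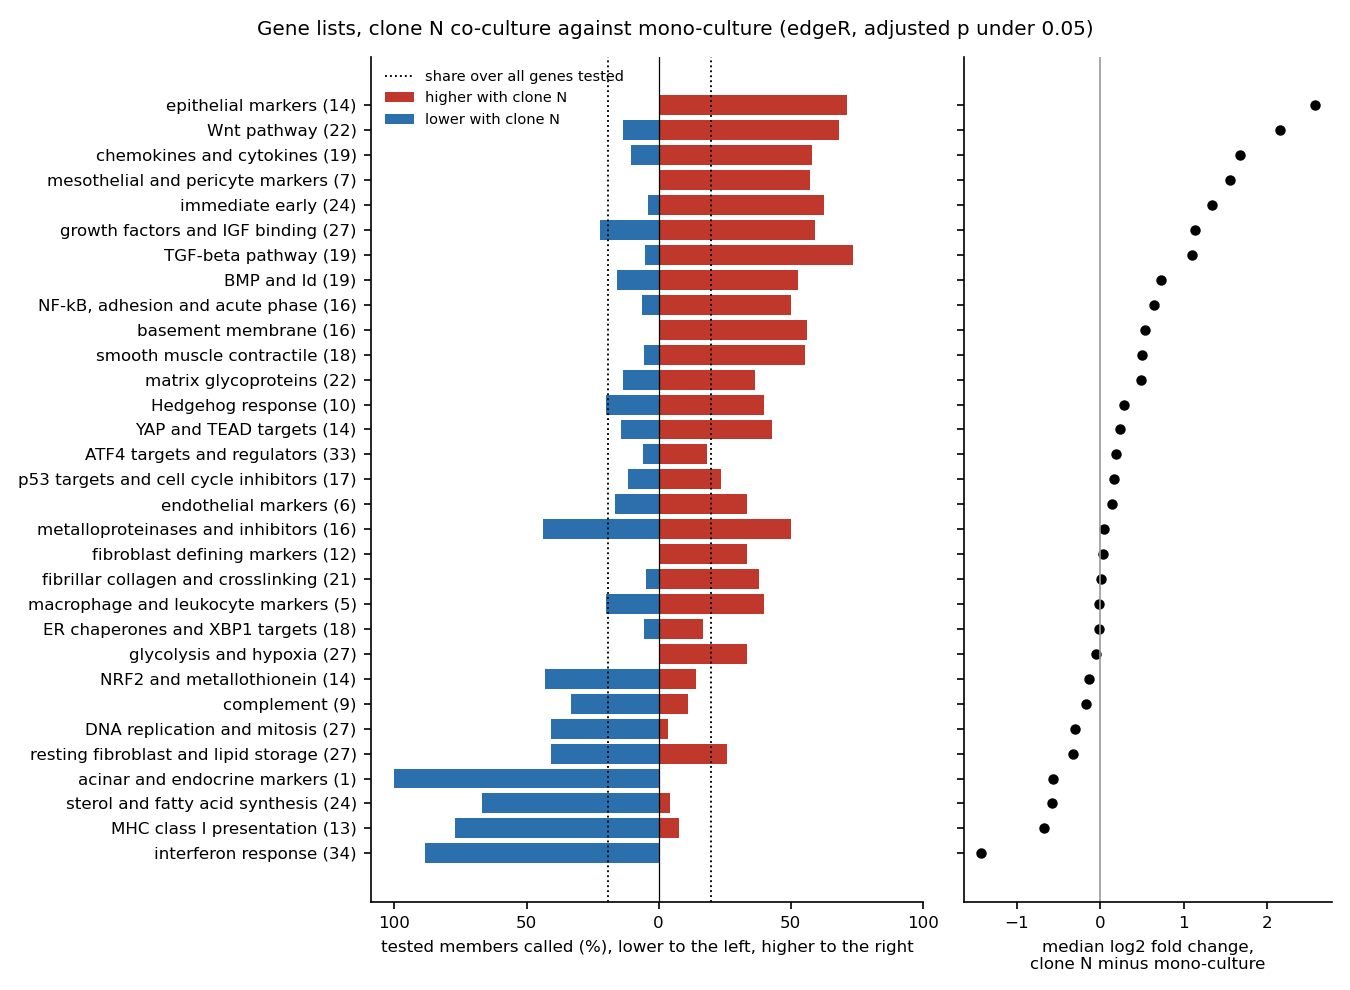
For each gene list (number of members tested in brackets), bars give the share of tested members called higher (red, right) or lower (blue, left) with clone N, and points give the median log2 fold change. Dotted lines mark the share of all tested genes called in that direction, 19.7% and 19.2%; interferon response reaches 88.2% lower with none higher.

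Interferon-stimulated genes were lowered almost as a block. Of 34 tested members, 30 were lower with clone N and none was higher, with a median log2 fold change of -1.43. Rsad2 (ENSMUSG00000020641), which encodes viperin, an antiviral enzyme, was at 18.1, 12.7, 10.3 and 20.1 CPM in mono-culture and 1.58, 2.65, 3.02 and 2.84 CPM with clone N (log2 fold change -2.61, SE 0.42, adjusted p = 9.9e-06). Cmpk2, a nucleotide kinase encoded next to it, fell from 12.6, 7.59, 8.21 and 21.8 CPM to 0.692, 1.19, 1.61 and 2.04 CPM (log2 fold change -3.19, SE 0.49, adjusted p = 5.4e-06). The groups did not overlap for either gene, and mono-culture replicate 4 was the highest of the 8 libraries for both.

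The fall extended to other effectors and to regulators of the response. Ifit1, which binds foreign RNA, was at 178, 128, 119 and 219 CPM in mono-culture and 33.5, 37.3, 55.5 and 52.9 CPM with clone N (log2 fold change -1.85, SE 0.29, adjusted p = 7.0e-06). The interferon signal transducer Irf9 (-1.001) and the interferon regulatory factor Irf7 (-1.18) were also lower on the log2 scale, the latter not without mono-culture replicate 4 (adjusted p = 0.12) or without mono-culture replicate 1 or clone N replicate 1 or 2. Also lower were the RNA sensor Ddx58 (-1.002) and the ubiquitin-like protein Isg15 (-1.15). Of the 4 members not called, Stat2 had a log2 fold change of -0.69 (adjusted p = 0.083), Mx1 -0.52, Ifih1 -0.44 and Oas3 0.44.

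The spread inside each group was wide for this list. Its summed level was 1835 to 3448 CPM in mono-culture, with replicate 4 the highest and replicate 1 next, and 752 to 1286 CPM with clone N, so the groups stayed apart. Without mono-culture replicate 4, 26 members were lower and the median was -1.25; without clone N replicate 2, 26 were. In the contrast with the mean of the other 6 clones 1 member, Oas3, was called, and it was higher with clone N (log2 fold change 1.69, SE 0.35, adjusted p = 0.0015).

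The promoters of these genes are shown because 30 members moved in 1 direction. A promoter here is the 300 bases from 250 before to 50 after a RefSeq start on GRCm38.p6, and 25 of the 34 tested members were matched. The letters GAAA followed, after any 2 bases, by GAAA again, on either strand (the core of the interferon-stimulated response element, ISRE), were in 16 of these 25 (64.0%), against 3.99% of the 27025 genes with a promoter; 13 of the 22 matched members that fell held them, as did the 3 matched members that were not called. Sequences read 5′ to 3′ on the strand of the gene, with the matched letters in capitals: Rsad2 at chr12:26456403-26456702 (minus strand), Ifit1 at chr19:34640639-34640938 (plus strand) and Isg15 at chr4:156200769-156201068 (minus strand).
Rsad2: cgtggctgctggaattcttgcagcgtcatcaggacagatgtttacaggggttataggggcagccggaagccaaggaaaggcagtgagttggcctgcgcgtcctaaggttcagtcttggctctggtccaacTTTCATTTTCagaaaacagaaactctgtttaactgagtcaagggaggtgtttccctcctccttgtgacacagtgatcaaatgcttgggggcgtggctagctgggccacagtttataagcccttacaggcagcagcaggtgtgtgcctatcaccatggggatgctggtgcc
Ifit1: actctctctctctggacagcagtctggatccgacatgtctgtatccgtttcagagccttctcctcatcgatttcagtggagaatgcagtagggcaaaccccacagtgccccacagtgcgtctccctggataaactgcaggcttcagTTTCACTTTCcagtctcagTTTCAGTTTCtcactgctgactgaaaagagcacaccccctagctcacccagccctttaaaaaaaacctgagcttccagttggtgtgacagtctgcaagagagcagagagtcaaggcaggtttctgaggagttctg
Isg15: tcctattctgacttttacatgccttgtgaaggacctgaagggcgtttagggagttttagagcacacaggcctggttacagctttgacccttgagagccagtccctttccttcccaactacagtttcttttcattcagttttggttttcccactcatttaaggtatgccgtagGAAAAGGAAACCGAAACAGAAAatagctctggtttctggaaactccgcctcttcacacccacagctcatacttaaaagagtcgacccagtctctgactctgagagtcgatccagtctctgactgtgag
Rsad2 held 1 match, Ifit1 2 and Isg15 3 in 1 run of capitals. A match describes the letters and is no evidence of a bound site.

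**Figure D3:**
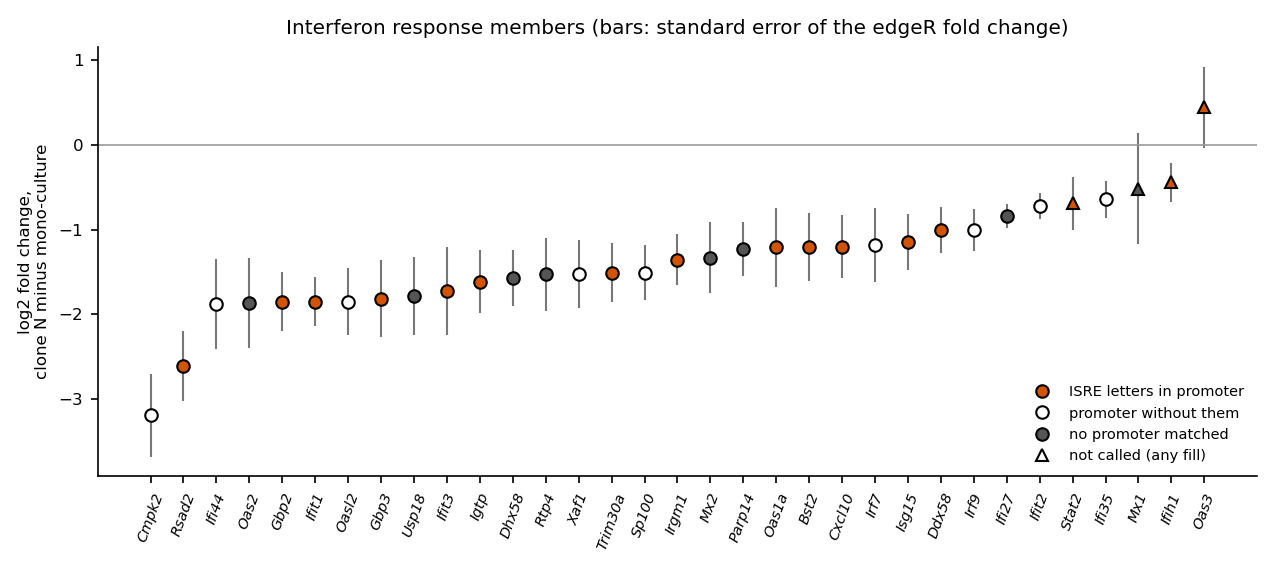
Log2 fold change of clone N over mono-culture for 33 of the 34 tested interferon response members, ordered by size, with bars for the standard error. Circles were called and triangles were not; orange fill marks the 16 genes with the ISRE letters in their promoter, white those without and grey those with no promoter matched. All but Oas3 lie below 0.

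Genes of MHC class I presentation, which load and display peptides on the cell surface, were lower alongside. Of 13 tested members 10 were lower and 1 was higher. Tapbp, the tapasin chaperone of peptide loading, was at 499, 460.1, 423 and 598 CPM in mono-culture and 152, 220.0, 210.1 and 236 CPM with clone N (log2 fold change -1.28, SE 0.19, adjusted p = 3.8e-06). The immunoproteasome subunit Psmb9 (-1.55), the class I transactivator Nlrc5 (-1.36) and the class I heavy chain H2-K1 (-0.67) were also lower, and the non-classical H2-T23 was higher (0.72). The H2 genes are close copies of each other, so reads may be split between them. This count leaned on mono-culture replicate 4: without it 6 members were lower and the median moved from -0.67 to -0.47, and H2-K1 was no longer called (adjusted p = 0.073).

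Wnt pathway genes had the highest median after epithelial markers. Of 22 tested members 15 were higher and 3 lower, with a median of 2.15. Axin2 (ENSMUSG00000000142), a feedback inhibitor that beta-catenin switches on, was at 0.661, 0.550, 0.228 and 1.28 CPM in mono-culture and 55.2, 45.7, 30.9 and 17.8 CPM with clone N (log2 fold change 5.68, SE 0.51, adjusted p = 1.1e-09). Nkd2, another feedback inhibitor, was at 2.09, 2.04, 1.22 and 1.69 CPM in mono-culture and 82.7, 78.0, 54.1 and 32.4 CPM with clone N (log2 fold change 5.11, SE 0.58, adjusted p = 6.4e-08). For both genes the groups were far apart, clone N replicate 1 was the highest library and replicate 4 the lowest with clone N.

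Other targets and inhibitors followed. Notum, an enzyme that inactivates Wnt ligands, was at 1.27, 0.770, 0.837 and 0.411 CPM in mono-culture and 9.69, 11.2, 5.44 and 4.31 CPM with clone N (log2 fold change 3.23, SE 0.39, adjusted p = 1.2e-07). The feedback genes Nkd1 (3.08) and Rnf43 (2.43), the transcription factor Lef1 (2.23) and the secreted antagonists Sfrp1 (2.29), Sfrp4 (2.09) and Dkk2 (2.22) were higher on the log2 scale. Among ligands Wnt6 (4.11), Wnt11 (3.57), Wnt4 (2.87) and Wnt5a (1.59) were higher and Wnt5b was lower (-1.33), a call that was lost without mono-culture replicate 1, 2 or 4 or clone N replicate 3 or 4 (adjusted p from 0.051 to 0.13).

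Both tested R-spondins, secreted proteins that amplify Wnt signals, were lower. Rspo2 was at 45.1, 59.4, 38.9 and 31.5 CPM in mono-culture and 2.37, 3.90, 1.61 and 2.89 CPM with clone N, a 16.1-fold lower level (log2 fold change -4.01, SE 0.43, adjusted p = 2.5e-08). Rspo3 fell by less (-1.48), and Rspo1 was too low to be tested. Epithelial markers rose with the Wnt list. Axin2 was highest in clone N replicate 1, while the summed level of the Wnt list (613 to 829 CPM with clone N) was highest in replicate 2, where the epithelial sum was highest too, and their part in the Wnt values was not tested. The letters ATCAAAG, on either strand (a core of TCF and LEF binding), were in 2 of 13 matched members, Wnt11 and Wnt5b, and in 4.29% of all genes with a promoter.

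BMP and activin genes, whose ligands are relatives of TGF-beta, were 10 higher and 3 lower of 19 (median 0.72). Bmp2 was at 0.826, 0.990, 0.989 and 0.777 CPM in mono-culture and 8.46, 35.3, 27.2 and 17.7 CPM with clone N (log2 fold change 4.63, SE 0.63, adjusted p = 1.1e-06). The activin subunit Inhbb was at 5.23, 4.35, 2.59 and 5.85 CPM in mono-culture and 81.2, 50.2, 50.9 and 53.7 CPM with clone N (log2 fold change 3.69, SE 0.29, adjusted p = 1.3e-10), and its partner Inhba was higher as well (2.62). Fst, the follistatin that binds activins, rose by 4.48 on the log2 scale and the BMP antagonist Grem1 by 1.33. The BMP target genes Id1 (1.47), Id3 (1.65) and Id4 (3.40) were higher, while Bmp6 (-2.19) and the antagonist Chrdl1 (-2.80) were lower. Bmp2 was highest in clone N replicate 2, the library with the highest summed level of epithelial markers, and a link between them was not tested.

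In the Hedgehog list 4 of 10 members were higher and 2 lower, with a median of 0.28 that turned sign by limma on RPKM. Gli1, a transcription factor and read-out of the pathway, was at 1.05, 0.990, 1.52 and 1.74 CPM in mono-culture and 4.80, 7.26, 8.12 and 4.20 CPM with clone N (log2 fold change 2.19, SE 0.36, adjusted p = 1.3e-05). The receptor Ptch1 (0.99), itself a target, was higher. The transducer Smo (-0.55) and the co-receptor Gas1 (-1.33) were lower.

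TGF-beta pathway genes were higher in 14 of 19 cases and lower in 1, with a median of 1.10. The ligand Tgfb2 was at 13.3, 18.98, 17.5 and 17.2 CPM in mono-culture and 107, 108, 138 and 108 CPM with clone N, 6.89-fold higher (log2 fold change 2.78, SE 0.22, adjusted p = 7.9e-11). Tgfb3 (1.53) and Tgfb1 (0.72) were also higher, as was the receptor Tgfbr1 (1.35), whereas Tgfbr2 was lower (-0.85). The inhibitors Smad7 (1.28), Skil (1.23) and Pmepa1 (1.59) were higher.

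Smooth muscle and contractile genes, which mark myofibroblasts, were 10 higher and 1 lower of 18 (median 0.50). Acta2, smooth muscle actin, was at 109, 148, 121 and 195 CPM in mono-culture and 485, 204, 297 and 294 CPM with clone N (log2 fold change 1.16, SE 0.38, adjusted p = 0.015). Tagln, an actin-binding protein, was at 30.8, 38.4, 30.5 and 48.0 CPM in mono-culture and 174, 78.4, 104 and 153 CPM with clone N (log2 fold change 1.78, SE 0.46, adjusted p = 0.0027). Clone N replicate 1 was the highest and replicate 2 the lowest clone N library for both, and each clone N library lay above each mono-culture library. The call of Acta2 was lost without clone N replicate 1 (adjusted p = 0.084) or mono-culture replicate 1 (adjusted p = 0.057). Myl9 (-0.14, adjusted p = 0.74) and Tpm2 (-0.29, adjusted p = 0.054) were not called and Csrp1 was lower (-0.69). Of the YAP and TEAD list, genes that respond to cell tension, 6 of 14 were higher and 2 lower, led by the ectonucleotidase Nt5e (2.66) and the matricellular proteins Ctgf (2.63, now Ccn2) and Cyr61 (1.29, now Ccn1). Ankrd1, a common read-out of that pathway, was not called (-0.15, adjusted p = 0.68).

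The main fibril collagens were not called while several minor ones rose. Of 21 fibrillar collagen and crosslinking genes 8 were higher and 1 lower, and the median was 0.01, a value whose sign turned without scaling beyond library size. Col1a1 was at 7018, 7935, 6670.1 and 7449 CPM in mono-culture and 7384, 8829, 7292 and 6288 CPM with clone N (log2 fold change 0.04, SE 0.20, adjusted p = 0.91), with overlapping groups. Col12a1, a collagen that sits on fibrils, was at 151, 195, 116 and 186 CPM in mono-culture and 1028, 1095, 843 and 617 CPM with clone N (log2 fold change 2.46, SE 0.37, adjusted p = 5.4e-06). The collagen V chains Col5a1 (0.72), Col5a2 (0.78) and Col5a3 (0.82) and the prolyl hydroxylase subunit P4ha3 (1.99) were higher.

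Basement membrane genes rose or were not called: 9 of 16 were higher and none was lower (median 0.54). Col15a1, a collagen of basement membrane zones, was at 15.4, 12.7, 10.95 and 9.28 CPM in mono-culture and 109.8, 127, 125 and 102 CPM with clone N, 9.59-fold higher (log2 fold change 3.26, SE 0.27, adjusted p = 2.0e-10). The laminin chain Lama4 was at 26.8, 21.5, 13.8 and 18.6 CPM in mono-culture and 121, 119, 95.4 and 83.0 CPM with clone N (log2 fold change 2.37, SE 0.37, adjusted p = 7.8e-06). Col18a1 (2.18), the collagen IV chains Col4a1 (1.26) and Col4a2 (1.36) and the laminin Lama5 (1.34) were also higher. Epithelial cells make several of these chains too, and epithelial markers rose in the same libraries; their part was not tested.

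Among 22 matrix glycoproteins 8 were higher and 3 lower (median 0.48). Spp1, osteopontin, was at 225, 167, 169 and 223 CPM in mono-culture and 1048, 1702, 1714 and 1703 CPM with clone N (log2 fold change 2.98, SE 0.39, adjusted p = 5.1e-07). The proteoglycan Aspn was at 18.3, 21.5, 16.1 and 13.8 CPM in mono-culture and 108, 117, 156 and 134 CPM with clone N (log2 fold change 2.88, SE 0.22, adjusted p = 2.9e-11). Tenascin C (Tnc, 1.92) and periostin (Postn, 1.80) were higher, and Tgfbi, a matrix protein that TGF-beta induces, was lower (-1.99). The list of metalloproteinases and their inhibitors split, with 8 higher and 7 lower of 16. The membrane collagenase Mmp14 (-1.06) and the gelatinases Mmp2 (-0.91) and Mmp9 (-2.16) were lower, as were the aggrecanases Adamts1 (-1.80) and Adamts5 (-1.44). Mmp13, a collagenase, had at most 1 count in a mono-culture library and 0.692, 1.41, 2.15 and 1.47 CPM with clone N, at least 8.23-fold higher against a floor of 3 counts per library, and the stromelysin Mmp3 (2.56) and the inhibitor Timp1 (1.37) were higher. Mmp9 was not called without clone N replicate 4 (adjusted p = 0.054).

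**Figure D4:**
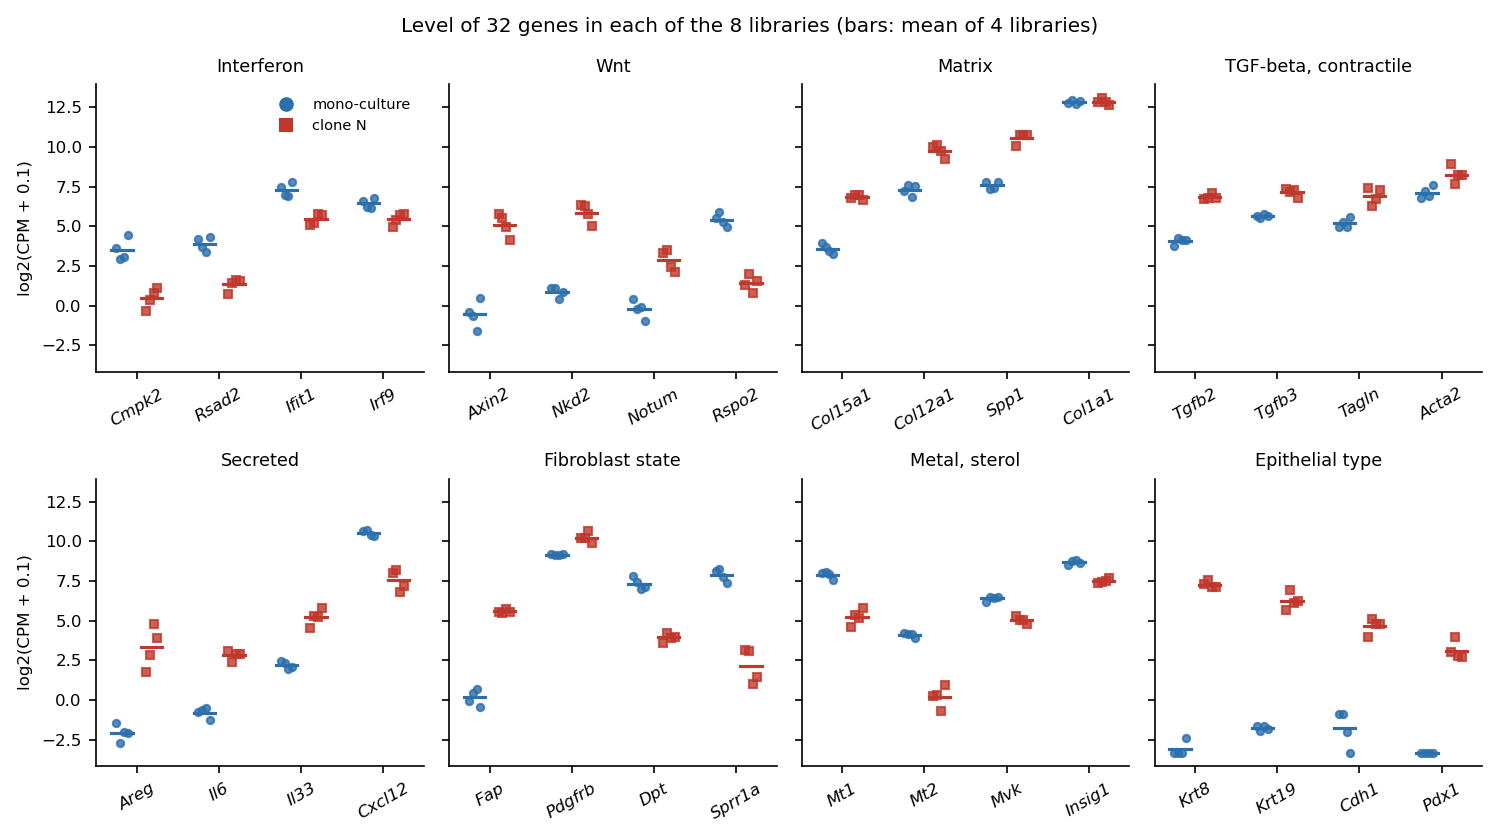
Points give log2(CPM + 0.1) of 32 genes in each of the 4 mono-culture libraries (blue circles) and the 4 clone N libraries (red squares), with a bar at each mean; panels group genes by role. The groups overlap for Col1a1 and are apart for Cmpk2, Axin2, Fap, Cxcl12 and Krt8.

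Chemokines and cytokines were mostly higher: 11 of 19 tested, with 2 lower (median 1.68). Il6, the cytokine that marks secretory fibroblasts, was at 0.495, 0.550, 0.608 and 0.320 CPM in mono-culture and 8.46, 5.31, 7.25 and 7.54 CPM with clone N (log2 fold change 3.87, SE 0.42, adjusted p = 1.9e-08), a low level in both groups. The alarmin Il33 was at 5.39, 4.95, 3.73 and 4.25 CPM in mono-culture and 23.4, 38.7, 37.9 and 55.1 CPM with clone N (log2 fold change 3.07, SE 0.31, adjusted p = 9.0e-09). Tslp, a cytokine that acts on dendritic cells, rose by 3.30 on the log2 scale, Lif, a relative of IL-6, by 2.76, and the chemokine Cxcl5 was at 0 or 1 count in each mono-culture library and 4.80, 5.63, 3.36 and 1.59 CPM with clone N, at least 22.1-fold higher against a floor of 3 counts per library.

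Cxcl12 (ENSMUSG00000061353) went against the list. This chemokine, which holds leukocytes in place and had the highest CPM of the list in mono-culture, was at 1639, 1667, 1340.4 and 1279 CPM in mono-culture and 252, 292, 112 and 146 CPM with clone N, 7.38-fold lower (log2 fold change -2.88, SE 0.40, adjusted p = 1.2e-06). The summed level of the list was 1871 to 2279 CPM in mono-culture and 908 to 1086 CPM with clone N, lower although most members rose. Ccl2 (0.71, adjusted p = 0.17) and Cxcl1 (1.68, adjusted p = 0.088) were not called. In the NF-kB, adhesion and acute phase list 8 of 16 were higher, among them the prostaglandin enzymes Ptgs2 (2.20) and Ptges (1.58) and the hyaluronan synthase Has2 (2.04), and Vcam1 was lower (-0.44; adjusted p = 0.051 without clone N replicate 2). Of 9 complement genes C4b was higher (1.78) and C3 (-2.02), C1ra (-0.78) and C1s (-0.65, adjusted p = 0.046) were lower. C1s was called in 1 of the 8 fits that each left out 1 library, and the call of C4b was lost without clone N replicate 1 or mono-culture replicate 2 or 3 (adjusted p from 0.052 to 0.064).

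Growth factors and IGF-binding proteins were 16 higher and 6 lower of 27 (median 1.14). Areg, amphiregulin, a ligand of the EGF receptor, was at 0.275, 0.0550, 0.152 and 0.137 CPM in mono-culture and 3.36, 7.04, 27.9 and 15.3 CPM with clone N (log2 fold change 6.37, SE 0.79, adjusted p = 2.5e-07), with clone N replicate 3 the highest and replicate 1 the lowest of the co-cultures. Other ligands of this receptor family were higher: Ereg (2.55), Hbegf (1.88), Btc (1.34) and Nrg1 (1.14). Pdgfb, a platelet-derived growth factor chain, was at 1.38, 1.21, 0.837 and 1.10 CPM in mono-culture and 11.1, 12.51, 12.9 and 13.6 CPM with clone N (log2 fold change 3.45, SE 0.61, adjusted p = 4.0e-05).

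IGF-binding proteins, which hold insulin-like growth factors, were split. Igfbp3 was at 1.98, 4.02, 1.52 and 3.11 CPM in mono-culture and 58.9, 33.2, 27.4 and 11.3 CPM with clone N (log2 fold change 3.59, SE 0.58, adjusted p = 1.4e-05). Igfbp5 was at 17.3, 13.2, 6.69 and 3.29 CPM in mono-culture and 0.346, 0.379, 0 and 0.0567 CPM with clone N (log2 fold change -5.58, SE 0.82, adjusted p = 3.2e-06), the lowest fold change among the genes named by rule. Igfbp4 (1.86) and Igfbp7 (1.59) were higher and Igfbp6 lower (-1.12), while Igf1 (1.02) and Igf2 (1.95), the factors themselves, were higher. Of the vascular growth factors Vegfa (1.14) and Vegfc (1.33) were higher and Figf, now called Vegfd, lower (-1.93).

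Immediate early genes are those that growth factor signals switch on within minutes. The list of that name, which also holds other targets and feedback regulators of ERK signalling, had 15 higher and 1 lower of 24 (median 1.34). Targets of ERK signalling led. Etv4, a transcription factor, was at 8.37, 7.48, 6.62 and 6.22 CPM in mono-culture and 53.01, 56.9, 78.9 and 65.1 CPM with clone N (log2 fold change 3.14, SE 0.25, adjusted p = 1.5e-10). The phosphatase Dusp6, a feedback regulator of ERK, was at 16.6, 32.6, 50.2 and 14.4 CPM in mono-culture and 101, 164, 194 and 171 CPM with clone N (log2 fold change 2.48, SE 0.38, adjusted p = 5.8e-06). Spry4 (2.09), Dusp4 (2.02), Fosl1 (2.01) and Myc (1.498) were higher and Spry2 was lower (-0.55), though not without clone N replicate 1 (adjusted p = 0.073) or mono-culture replicate 2 (adjusted p = 0.056). Fos (0.25, adjusted p = 0.81), Fosb (-0.44, adjusted p = 0.75) and Dusp1 (-0.05, adjusted p = 0.93) were not called. The mean log2 CPM of the list was 5.83 in clone N replicate 1 and 6.61 to 6.66 in the other 3 clone N libraries, against 4.73 to 5.68 in mono-culture. The summed levels overlapped, at 1294 to 3011 CPM in mono-culture and 2332 to 4741 CPM with clone N.

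Fap (ENSMUSG00000000392), the fibroblast activation protein and a surface protease of tumour stroma, had the largest fold change of the 12 fibroblast markers. It was at 0.881, 1.27, 1.52 and 0.640 CPM in mono-culture and 47.2, 45.6, 54.3 and 47.0 CPM with clone N, 46.5-fold higher (log2 fold change 5.54, SE 0.29, adjusted p = 7.6e-15). Its mean with clone N was 48.5 ± 3.92 CPM (SD, n = 4). Pdgfrb, the receptor of PDGF-B, was at 579.8, 568, 572 and 585 CPM in mono-culture and 1166, 1207, 1579 and 935 CPM with clone N (log2 fold change 1.08, SE 0.21, adjusted p = 1.3e-04), and Thy1 was higher (0.86). Dcn (0.03), Lum (-0.61) and Pdgfra (-0.33) were not called (adjusted p = 0.96, 0.3 and 0.22).

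Genes of the resting and lipid-storing state were 11 lower and 7 higher of 27 (median -0.33). Dpt, dermatopontin, a matrix protein of resting fibroblasts, was at 228, 175, 126 and 137 CPM in mono-culture and 12.3, 19.01, 15.2 and 15.99 CPM with clone N (log2 fold change -3.41, SE 0.36, adjusted p = 1.7e-08). The clock-related factor Hlf (-3.76), the lipid droplet protein Plin4 (-2.69), the retinoid carrier Crabp1 (-2.39) and the progenitor markers Pi16 (-1.21) and Cd34 (-1.20) were lower. Rbp4, the plasma retinol carrier, was at 0.0550, 0, 0 and 0.229 CPM in mono-culture and 25.7, 56.4, 25.6 and 32.3 CPM with clone N (log2 fold change 8.60, SE 1.03, adjusted p = 1.4e-07), with clone N replicate 2 the highest. Of 7 mesothelial and pericyte markers tested (14 listed) 4 were higher. Krt19, also counted with the epithelial markers, was among these. Notch3 (2.02), Mcam (2.22) and Msln (1.56; adjusted p = 0.051 without mono-culture replicate 3) were the others. The pericyte gene Rgs5 was not called (-0.99, adjusted p = 0.086). Untested members went both ways. The largest count of mesothelial Upk3b was 23 among mono-culture libraries and 2 among clone N libraries. For the pericyte genes Kcnj8 and Abcc9 it was 1 each in mono-culture, against 29 and 18 with clone N. Wt1, Lrrn4 and Upk1b, also mesothelial, did not exceed 3 counts in either group.

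Metallothioneins fell together. Mt1, which binds zinc and copper, was at 254, 265, 249 and 191 CPM in mono-culture and 24.5, 40.8, 35.3 and 57.0 CPM with clone N (log2 fold change -2.60, SE 0.29, adjusted p = 4.0e-08), and Mt2 was at 18.7, 17.6, 17.9 and 15.3 CPM in mono-culture and 1.09, 1.14, 0.537 and 1.87 CPM with clone N (log2 fold change -3.89, SE 0.64, adjusted p = 1.6e-05). Nqo1 (-1.60), Gstm1 (-0.97) and Hmox1 (-0.91), targets of the oxidative stress factor NRF2, were lower, but Slc7a11, the cystine importer and a target of the same factor, was higher (1.58). The list had 6 lower and 2 higher of 14 (median -0.13).

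Sterol and fatty acid synthesis was lowered across the pathway: 16 of 24 members were lower and 1 was higher (median -0.58). Mvk, mevalonate kinase, was at 73.3, 90.1, 87.3 and 89.7 CPM in mono-culture and 39.5, 33.2, 32.4 and 27.6 CPM with clone N (log2 fold change -1.36, SE 0.17, adjusted p = 1.3e-07). Insig1, which holds the sterol sensor in the endoplasmic reticulum, was at 373, 435, 452 and 402 CPM in mono-culture and 164, 176, 178 and 211 CPM with clone N (log2 fold change -1.19, SE 0.15, adjusted p = 2.7e-07). Hmgcs1 (-0.91), Fdps (-1.01) and Lss (-1.01) were lower. The regulators Srebf1 (-0.13, adjusted p = 0.51) and Srebf2 (-0.16, adjusted p = 0.32) were not called. The letters TCACNCCAC, on either strand (a sterol response element), were in 1 of 15 matched promoters, that of Hmgcs1, and in 1.44% of all genes with a promoter. Without mono-culture replicate 4, 13 members were lower and none was higher.

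In glycolysis and hypoxia 9 of 27 genes were higher and none was lower, but the median was -0.06. Egln3, an oxygen sensor that HIF induces, was at 17.3, 14.6, 17.3 and 16.96 CPM in mono-culture and 40.5, 78.2, 62.6 and 84.0 CPM with clone N (log2 fold change 2.00, SE 0.40, adjusted p = 2.2e-04), and the hexokinase Hk2 was at 14.8, 18.3, 13.6 and 16.9 CPM in mono-culture and 39.5, 54.4, 62.7 and 48.4 CPM with clone N (log2 fold change 1.68, SE 0.26, adjusted p = 6.7e-06). The glucose transporter Slc2a1 (0.40) and lactate dehydrogenase Ldha (0.55) were higher, Slc2a1 not without clone N replicate 2 or 3 or mono-culture replicate 1 (adjusted p from 0.057 to 0.1), and the glycolytic enzymes Gapdh (-0.10) and Pgk1 (-0.06) were not called. Car9, a hypoxia marker, was at 0.771, 0.660, 0.684 and 0.731 CPM in mono-culture and 0.544, 0.596, 0.201 and 0.510 CPM with clone N and was not called (adjusted p = 0.28).

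The ATF4 list of amino acid and stress genes held 6 higher and 2 lower of 33 members (24.2% called, against 39% of all genes), and 11 higher when the fit held the 8 libraries alone. Stc2 (1.59), Vldlr (1.09) and Cebpb (1.10) were higher and Atf5, a transcription factor downstream of ATF4, was at 319, 370.2, 324 and 454 CPM in mono-culture and 152, 127, 131 and 74.3 CPM with clone N (log2 fold change -1.59, SE 0.23, adjusted p = 2.7e-06). Trib3 (-0.01), Ddit3 (-0.23) and Atf4 itself (-0.06) were not called. Of 18 endoplasmic reticulum chaperone genes 3 were higher, including the chaperone Hspa5 (0.55; adjusted p = 0.056 without clone N replicate 4), and 1 was lower.

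Replication genes were lower by small amounts. Of 27 members 11 were lower and 1 was higher (median -0.30). The replicative helicase subunit Mcm5 was at 258, 276, 250.4 and 284 CPM in mono-culture and 173, 143, 139 and 161 CPM with clone N (log2 fold change -0.79, SE 0.12, adjusted p = 3.8e-06). Mcm6 (-0.53), Mcm7 (-0.53) and the sliding clamp Pcna (-0.42) were lower too. Mitotic genes such as Mki67 (-0.15), Top2a (-0.14) and Cdk1 (-0.19) were not called. Cyclin D1, Ccnd1, a growth-factor and Wnt target, was the exception at 66.7, 77.3, 68.1 and 94.9 CPM in mono-culture and 280.1, 292, 298 and 234 CPM with clone N (log2 fold change 1.85, SE 0.30, adjusted p = 1.6e-05). Of 17 p53 targets and cell cycle inhibitors 4 were higher, with the death receptor Fas first (2.00), and 2 lower, with Cdkn1c at -2.56; the median was 0.16, and 0.04 with Perp at its bound.

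The 10 highest fold changes, among called genes with a mean of at least 5 CPM and clone N libraries all above mono-culture, were Krt8, Cldn6, Cdx2, Krt18, Palmd, Pdx1, Trbc2, Nkx6-3, Ifi202b and Wfdc2. For 9 of them no mono-culture library held more than 3 counts, so folds are bounds against that floor in each library: at least 897-fold for the keratin Krt8, 232-fold for the secreted protein Wfdc2, 129-fold for the interferon-inducible Ifi202b (a gene with close copies that may share reads), 93.0-fold for the claudin Cldn6 and 61.9-fold for Cdx2. Cdx2 and Pdx1 are transcription factors of gut and pancreatic epithelium. Cdx2 was at 0 in mono-culture and at 9.84, 17.4, 8.60 and 7.20 CPM with clone N, and Pdx1 was at 0 and at 7.96, 15.7, 6.85 and 6.35 CPM. Krt18 was at 0.165, 0.220, 0.0761 and 0.183 CPM in mono-culture and 206, 325, 261 and 291 CPM with clone N. Both transcription factors and Krt18 were highest in clone N replicate 2. Palmd, which encodes palmdelphin, was at 0 in mono-culture and 7.62, 8.02, 14.0 and 9.92 CPM with clone N, and the stomach and gut factor Nkx6-3 was at 7.67, 10.3, 6.71 and 5.44 CPM with clone N.

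The 10 lowest were Igfbp5, Sprr1a, Cldn1, Ptchd1, Rspo2, Mt2, Hlf, Slc24a3, Dpt and Mme. Sprr1a, a structural protein of squamous cells that injured tissue also makes, was at 276, 303, 213 and 168 CPM in mono-culture and 8.65, 8.34, 1.95 and 2.61 CPM with clone N (log2 fold change -5.45, SE 0.60, adjusted p = 3.7e-08). Cldn1, a tight junction claudin, was at 44.8, 61.8, 52.8 and 75.9 CPM in mono-culture and 3.17, 5.42, 1.34 and 2.38 CPM with clone N (log2 fold change -4.24, SE 0.39, adjusted p = 1.1e-09), opposite in direction to Cldn6. The surface peptidase Mme was at 102, 78.7, 58.7 and 67.2 CPM in mono-culture and 8.80, 11.3, 4.57 and 7.32 CPM with clone N (log2 fold change -3.25, SE 0.32, adjusted p = 5.2e-09). The sodium, calcium and potassium exchanger Slc24a3 (-3.57) and Ptchd1 (-4.05) were also among them, and clone N replicates 3 and 4 were the lowest libraries for Sprr1a and Slc24a3.

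Whether clone N acted differently from other clones was asked against the mean of clones E, H, K, M, T and V. In that contrast 1553 genes (10.8%) were called, 973 (6.74%) higher and 580 (4.02%) lower with clone N. Of the 973, 659 were also higher than in mono-culture, 181 had all 4 clone N libraries above each of the 6 clone means, and 84 had at most 3 counts in each mono-culture library. Of the 580, 284 were also lower than in mono-culture and 147 lay below each clone mean. The count rested on clone N replicates 2 and 3: without replicate 2 it was 689 (508 higher, 181 lower) and without replicate 3 it was 942.

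Of 22 Wnt genes, 13 were higher than in the other 6 clones and none was lower, against a background of 6.74% higher. Axin2 averaged 37.4 ± 16.5 CPM (SD, n = 4) with clone N, 33.4 ± 9.20 CPM with clone M, 27.4 ± 11.3 CPM with clone K and 8.19 ± 3.57 CPM with clone H (log2 fold change 1.18, SE 0.26, adjusted p = 0.0032). Nkd2 averaged 61.8 ± 23.3 CPM with clone N but 85.1 ± 40.8 CPM with clone K, so clone N was not the highest (log2 fold change 1.59, SE 0.31, adjusted p = 7.8e-04). The ligand Wnt4 (log2 fold change 2.40, SE 0.40, adjusted p = 1.0e-04) and the ubiquitin ligase Rnf43 (log2 fold change 2.20, SE 0.38, adjusted p = 1.4e-04) were also higher. The next clones were within the spread of clone N for Axin2. The summed level of the list was 728 ± 91.2 CPM with clone N, 745 ± 156 CPM with clone K and 685 ± 98.9 CPM with clone M (SD, n = 4), differences within the spread of clone N. Without clone N replicate 2, 7 of the 22 were higher, and without replicate 1, 10 were and 1 was lower.

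Of the remaining lists, 9 of 19 chemokines and cytokines, 8 of 27 growth factors, 6 of 9 complement genes, 5 of 19 BMP genes and 7 of 14 epithelial markers were higher than in the other clones, and 11 of 27 replication genes were lower. By summed level, single clones were level with clone N or beyond it in each of these lists except growth factors, where libraries still overlapped. The growth factor sum was 1725 ± 180 CPM (1479 to 1910) with clone N and 1518 ± 235 CPM (1335 to 1853) with clone T. The chemokine sum was 1000 ± 82.7 CPM with clone N, 1274 ± 128 CPM with clone K and 1187 ± 145 CPM with clone E. The mean log2 CPM of the chemokine list was 3.75 with clone N and 3.48 with clone E, the next clone. The summed complement level was 452 ± 66.5 CPM with clone N, 574 ± 58.1 CPM with clone M and 551 ± 99.8 CPM with clone K. The BMP sum was 2551 ± 244 CPM with clone N and 2809.6 ± 378 CPM with clone K. The replication sum was 4031 ± 392 CPM with clone N, 3982 ± 402 CPM with clone K and 4009 ± 281 CPM with clone M. Bmp2 averaged 22.2 ± 11.6 CPM with clone N, 12.3 ± 7.79 CPM with clone T and 2.65 ± 0.686 CPM with clone E (log2 fold change 3.65, SE 0.34, adjusted p = 9.2e-09). Cdh1 averaged 26.4 ± 8.02 CPM with clone N and 22.2 ± 8.33 CPM with clone E, and lay at 0.0304 ± 0.0607 CPM with clone M (log2 fold change 3.41, SE 0.35, adjusted p = 5.9e-08). The summed epithelial level was 643 ± 119.5 CPM with clone N, 649 ± 252 CPM with clone T, 423 ± 118 CPM with clone E while clone V had 155 ± 102 CPM (SD over 4 libraries); its part in these differences was not tested. Without clone N replicate 2, 7 of the chemokines, 6 growth factors, 2 complement genes and 2 replication genes were called, against 4 replication genes without replicate 3. Epithelial markers went from 7 to 4 without replicate 2. Without clone N replicate 3 or 4, 6 chemokines were called, and without replicate 4, 5 growth factors were; without replicate 3, 4 complement genes were.

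The 5 genes highest against the other clones were Wnt10a, Ifitm1, Tmem51, Olr1 and Trbc2. Wnt10a, a Wnt ligand, was at 4.55, 13.6, 5.91 and 3.74 CPM with clone N and averaged 1.14 CPM with clone T, the next group (log2 fold change 4.26, SE 0.40, adjusted p = 8.9e-09). Ifitm1, a membrane protein that restricts viral entry, was at 2.04, 3.25, 3.04 and 2.33 CPM in mono-culture and 53.2, 85.0, 68.0 and 85.6 CPM with clone N and averaged 18.2 ± 7.23 CPM with clone E (log2 fold change 4.24, SE 0.23, adjusted p = 7.8e-14). Trbc2, a constant segment of the T cell receptor beta chain, was at 0 in mono-culture and 6.73, 9.21, 8.26 and 8.22 CPM with clone N (log2 fold change 3.69, SE 0.35, adjusted p = 1.7e-08), while the T cell marker Cd3e had 0 counts. It has a near-identical neighbour, Trbc1, so its reads may be shared. Olr1, a receptor for oxidised LDL, was at 5.34, 20.9, 10.5 and 6.35 CPM (log2 fold change 3.90, SE 0.34, adjusted p = 3.3e-09) and Tmem51 at 4.85, 6.55, 3.89 and 4.71 CPM (log2 fold change 4.21, SE 0.36, adjusted p = 1.6e-09). Clone T came next for Olr1 (3.16 ± 2.86 CPM) and Trbc2 (3.08 ± 1.72 CPM). For Tmem51 it was clone E (1.44 ± 0.496 CPM), while clones H and K averaged 0.0388 and 0.0337 CPM. Against clone E alone Tmem51 was not called (log2 fold change 1.79, adjusted p = 0.081), and the other genes of the 5 were. Ifitm1 is interferon-inducible, and it lay above mono-culture while the interferon list lay below it. Wnt10a and Olr1 were highest in clone N replicate 2, the library with the highest epithelial sum, and a link to that sum was not tested.

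The 5 lowest were small changes: Oasl1 (-0.88), Arhgap33 (-0.84), Nexn (-0.73), Wfs1 (-0.72) and Mex3b (-0.61), with adjusted p = 0.0036, 0.0053, 0.0011, 0.0053 and 0.0077. The call of Mex3b was lost without clone N replicate 4 (adjusted p = 0.053). Oasl1, an inhibitor of Irf7 translation, was at 22.02, 18.4, 16.8 and 22.7 CPM in mono-culture and 5.09, 6.17, 4.90 and 6.75 CPM with clone N. Oasl1 averaged 7.27 CPM with clone K, the next clone, but 20.9 and 19.3 CPM with clones H and V. Clones H and V also had the highest means of the other clones for Arhgap33, Wfs1 and Mex3b. Against clone E alone, Oasl1, Arhgap33, Wfs1 and Mex3b were not called (adjusted p = 0.32, 0.66, 0.72 and 0.53). Nexn, nexilin, an actin-binding protein, averaged 14.0 ± 2.86 CPM with clone N against 16.8 ± 5.47 CPM with clone M, the lowest of the other clones.

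**Figure D5:**
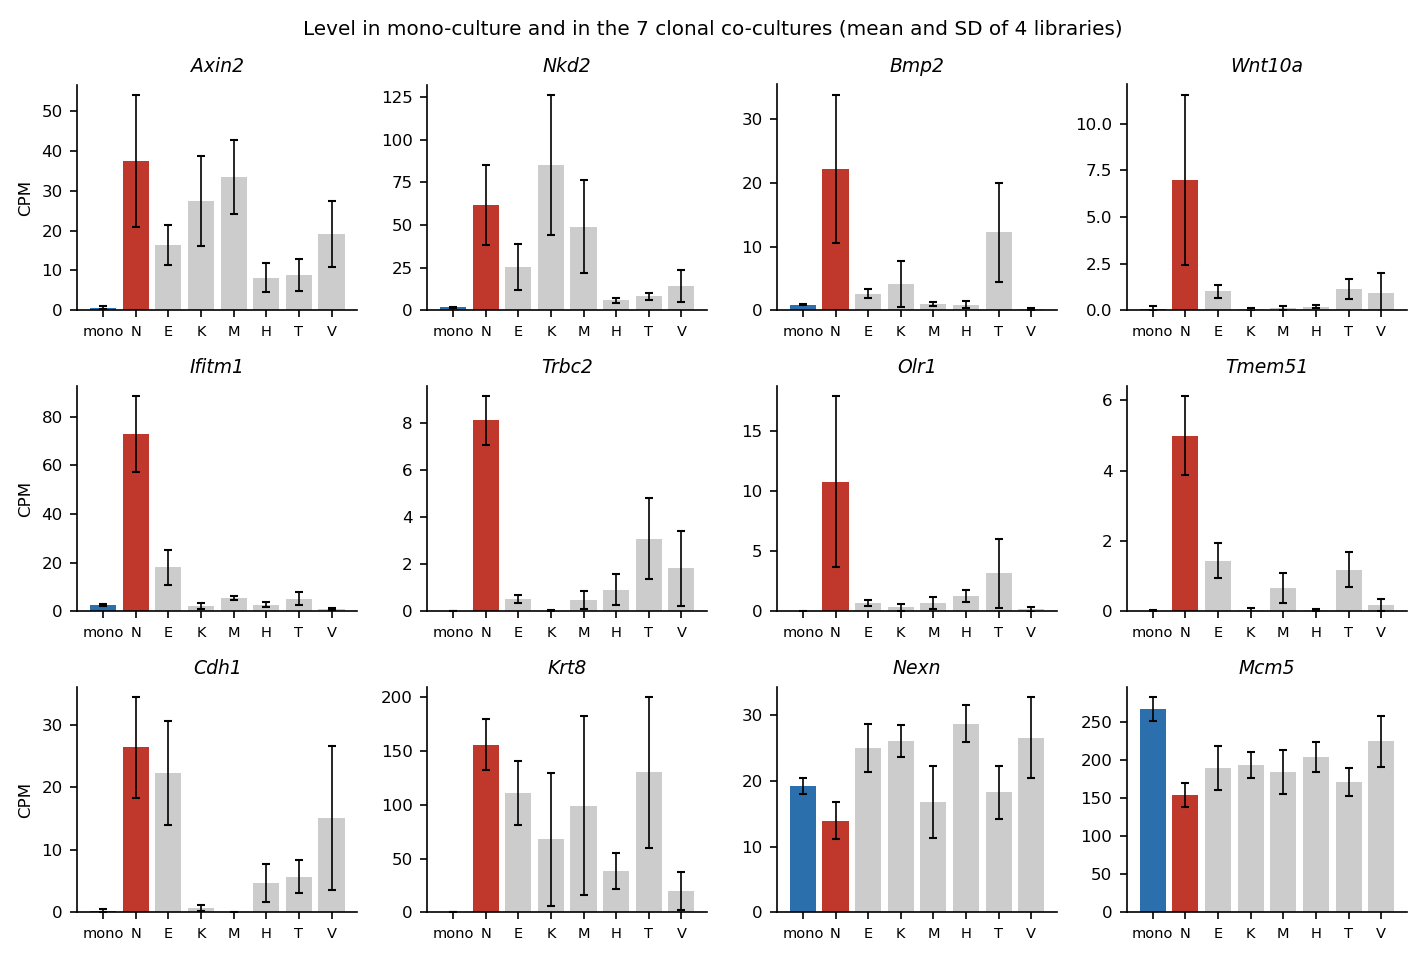
Bars give the mean CPM of 4 libraries, with SD, for 12 genes in mono-culture (blue), with clone N (red) and with the other 6 clones (grey). Wnt10a, Ifitm1, Trbc2, Olr1 and Tmem51 are highest with clone N, Nkd2 is highest with clone K, and Nexn and Mcm5 are lowest with clone N.

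Clone E served as a single-clone comparator, chosen as the co-culture nearest to clone N in earlier results of these data. A low count of genes between them follows in part from that choice. Between clones N and E 183 genes (1.27%) were called, 130 (0.9%) higher and 53 (0.367%) lower with clone N. Trbc2 (log2 fold change 3.91, SE 0.60, adjusted p = 3.1e-04), Olr1 (log2 fold change 3.91, SE 0.61, adjusted p = 3.1e-04) and the sodium and proton exchanger Slc9a2 (log2 fold change 3.63, SE 0.83, adjusted p = 0.021) were the 3 highest, although clone T gave 16.9 ± 5.67 CPM of Slc9a2 and clone N 5.96 ± 3.52 CPM. The transcriptional repressor Hic1 (log2 fold change -1.01, SE 0.23, adjusted p = 0.02), Nexn (log2 fold change -0.84, SE 0.18, adjusted p = 0.014) and the Notch regulator Dtx4 (log2 fold change -0.82, SE 0.21, adjusted p = 0.043) were the lowest. Hic1 and Dtx4 were not called against the mean of the other clones (adjusted p = 0.51 and 0.45) or against mono-culture (adjusted p = 0.078 and 0.83). Hic1 averaged 59.0 CPM with clone N, 119 CPM with clone E and 35.1 CPM with clone V. Of the 130, 118 were higher than in mono-culture as well and 24 had at most 3 counts in each mono-culture library. No interferon member was called between the 2 clones, 2 of 22 Wnt members, Notum and Rnf43, were higher with clone N, and 1 MHC class I member, the peptidase Erap1, was lower. The count ran from 77 without clone N replicate 2 to 304 without clone N replicate 1, with 94 without clone N replicate 4, 106 without clone N replicate 3, and 88, 101 and 92 without clone E replicates 1, 2 and 4. Slc9a2, Hic1, Nexn and Dtx4 each lost their call without at least 1 library: Slc9a2 without clone N replicate 3, Hic1 and Nexn without clone N replicate 2 or 4, and Dtx4 without clone N replicate 1, 2 or 4, besides clone E libraries for 3 of these genes.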

How the data were processed

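RNA sequencing libraries (poly(A), strand-specific kit, 200 ng of RNA, 14 cycles, paired-end reads of 76 bases) were made by the authors, whose processing notes name STAR, featureCounts, edgeR and mouse build mm10; versions and the strand setting are not given in the sources used here. The deposited counts are whole numbers per gene, and the deposited RPKM values, scaled to gene length and library size, were made by the authors from the same libraries. Precision is limited by depth (12577931 to 20727926 counts per library) and by 4 libraries a group.

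Counts of 36 libraries in 9 groups (a co-culture with KPC1 cells included) were fitted with edgeR 4.0.16 in R 4.3.3 (filterByExpr, TMM scaling, quasi-likelihood test), and contrasts of clone N with mono-culture, with the mean of 6 clones and with clone E were tested with Benjamini-Hochberg adjustment at 0.05 over 14439 of 39017 genes. CPM are TMM-scaled. Standard errors are the fold change over the square root of F. DESeq2 1.42.0 and limma 3.58.1 (on RPKM) were alternatives, with other scalings, filters, fits, a replicate block and left-out libraries. The procedure was tested on simulated data. Text named the 10 highest and lowest genes against mono-culture, 5 against other clones and 3 against clone E, among called genes with a mean of at least 5 CPM and separated libraries, and members of the gene lists. The members and lists were chosen with earlier results of these data known. Against the other clones, list counts without each clone N library were added after seeing the data. Promoters are from RefSeq (GRCm38.p6). Values of some single list members are not reported here.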

Additional observations from a re-analysis of the deposited data

Results flagged for a closer look

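In each group of 4 libraries, the gap of the outermost library to its neighbour was divided by the range of the group on the log2 scale, and a ratio above Dixon's 95% critical value was taken as a library apart. This was so in 20 of 417 groups examined, where chance gives about 1 in 20. The epithelial markers list was highest in mono-culture replicate 2, at -1.22 against -1.43 to -1.42 mean log2 CPM (ratio 0.948). The immediate early list was lowest in clone N replicate 1, at 5.83 against 6.61 to 6.66 mean log2 CPM (ratio 0.941). Cdkn1c was lowest in mono-culture replicate 3, at 16.5 against 20.02 to 20.5 CPM (ratio 0.898). Cldn6 was lowest in clone N replicate 1, at 11.5 against 17.3 to 18.3 CPM (ratio 0.884). Col4a1 was highest in mono-culture replicate 4, at 726 against 491 to 519.8 CPM (ratio 0.856). Egln3 was lowest in mono-culture replicate 2, at 14.6 against 16.96 to 17.3 CPM (ratio 0.888). Fas was lowest in clone N replicate 2, at 15.6 against 21.7 to 22.6 CPM (ratio 0.895). Gas1 was highest in clone N replicate 2, at 294 against 220.0 to 229 CPM (ratio 0.864). Igf1 was lowest in mono-culture replicate 3, at 37.0 against 50.2 to 53.1 CPM (ratio 0.846). Igfbp7 was highest in clone N replicate 3, at 393 against 316 to 320.2 CPM (ratio 0.942). Inhba was lowest in mono-culture replicate 1, at 4.24 against 7.76 to 8.27 CPM (ratio 0.903). Inhbb was highest in clone N replicate 1, at 81.2 against 50.2 to 53.7 CPM (ratio 0.86). Mcm6 was lowest in mono-culture replicate 1, at 417 against 429 to 429.8 CPM (ratio 0.944). Mvk was lowest in mono-culture replicate 1, at 73.3 against 87.3 to 90.1 CPM (ratio 0.846). Myc was lowest in mono-culture replicate 1, at 47.9 against 67.5 to 71.7 CPM (ratio 0.849). Nkd1 was lowest in clone N replicate 4, at 9.07 against 19.8 to 21.1 CPM (ratio 0.923). Notch3 was lowest in clone N replicate 4, at 277 against 406 to 436 CPM (ratio 0.84). Nt5e was lowest in clone N replicate 1, at 5.79 against 11.3 to 12.8 CPM (ratio 0.844). Spp1 was lowest in clone N replicate 1, at 1048 against 1702 to 1714 CPM (ratio 0.985). Tgfb2 was highest in clone N replicate 3, at 138 against 107 to 108 CPM (ratio 0.95).

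Differences between clone N and the other clones were tested directly. In the contrast with the mean of the other 6 clones, the log2 fold change was 4.26 for Wnt10a, 4.24 for Ifitm1, 4.21 for Tmem51, 3.90 for Olr1 and 3.69 for Trbc2, and -0.88 for Oasl1, -0.84 for Arhgap33, -0.73 for Nexn, -0.72 for Wfs1 and -0.61 for Mex3b. In the contrast with clone E it was 3.91 for Trbc2, 3.91 for Olr1 and 3.63 for Slc9a2, and -1.01 for Hic1, -0.84 for Nexn and -0.82 for Dtx4.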

How the results depend on the processing

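No called fold change of a named gene turned direction in the alternatives run, and the count of genes that differ from mono-culture kept within 1.5 times of 5625 in all of them (4843 to 5654 for the filters, scalings and left-out libraries, 5559 to 6703 for the remaining tools, fits and threshold). Leaving out 1 library gave 4843 to 5625 genes against mono-culture, 689 to 1460 against the other 6 clones and 77 to 304 against clone E. The contrast with the other 6 clones rose from 1553 to 2373 genes at an adjusted p under 0.1. The contrast with clone E, 183 genes, gave 287 by DESeq2, 307 at an adjusted p under 0.1 and 104 with at least 10 counts in each library compared, where fewer genes were tested. The labels do not say whether a replicate number marks a shared batch. Same-numbered clone N and mono-culture libraries deviated with r between -0.58 and 0.09, clone N and clone E libraries with r between -0.37 and 0.42, and clone N and the other 5 clones with r between -0.52 and 0.43; in no pair of groups were all 4 over 0.1 or was each library closest to its own number. Some lists moved with the number across co-cultures: the basement membrane list was highest in replicate 2 and the ATF4 list lowest in replicate 4 in 8 of 8, and the interferon list was lowest in replicate 1 and the epithelial list in replicate 2 in 7 of 8, the latter not with clone N. With the replicate number as a block in the fit, 6390 genes differed from mono-culture, 2390 from the other 6 clones and 392 from clone E; the cause was not tested. With at least 10 counts in each library compared, 9 Wnt genes, 6 chemokines and cytokines, 3 epithelial markers and 3 resting fibroblast genes were higher, since low genes were not tested. Of 232 fold changes named, 20 lost their call without at least 1 library, 7 with no filter on low counts, 3 with only the groups compared in the fit, and 1 each by DESeq2, by limma with either pseudocount, with no scaling beyond library size and with at least 10 counts in each library compared. Medians near 0, of fibrillar collagen, fibroblast markers, metalloproteinases and Hedgehog genes, changed sign with scaling or tool, so no direction is given for these lists.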
